A study of Homo sapiens with 4 samples.

Results

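The genes described here encode the proteins of the mitochondrial ribosome. They were chosen by name: every protein-coding gene in the GENCODE 44 annotation of hg38 whose symbol begins with MRPL or MRPS followed by a number. This gave 78 genes among 20033 protein-coding genes, 49 MRPL and 29 MRPS. They lie on 21 chromosomes, with 8 on chromosome 1 and 8 on chromosome 17, so they do not form a cluster in the genome. The rule uses gene symbols and no measured value, but the group was proposed with earlier results of these data known.

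The mitochondrial ribosome, or mitoribosome, translates the few mRNAs that mitochondrial DNA encodes, which are core membrane subunits of the respiratory chain and of ATP synthase. Its rRNAs come from mitochondrial DNA, but all of its proteins are encoded in the nucleus, made in the cytosol and imported. Some of them descend from bacterial ribosomal proteins and others were added during the evolution of mitochondria. WDR5 is a WD40-repeat scaffold of the KMT2/MLL complexes, which methylate histone H3 at lysine 4, and it is known to occupy promoters of cytosolic ribosomal protein genes. SS18::SSX is the fusion protein of synovial sarcoma (SS), in which a subunit of the SWI/SNF (BAF) chromatin remodeling complexes is joined to the C-terminal part of an SSX protein.

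The data were 4 CUT&RUN peak lists from HSSY II, an established human SS line that carries SS18::SSX1. CUT&RUN releases chromatin fragments around an antibody-bound protein with a tethered micrococcal nuclease. The cells had been kept for 4 days with DMSO or with 2.5 µM MS67, a proteolysis-targeting chimera (PROTAC) that recruits the VHL ubiquitin ligase to WDR5, and 1 library was made per antibody (WDR5 or SS18::SSX) and treatment. Each library held 1000000 HSSY II cells and 50000 murine NIH-3T3 cells as a spike-in, and all results come from a single line. With 1 library per condition there was no replicate check. No test between conditions was possible, and the intervals given below (95%, exact Clopper-Pearson) cover counting error only.

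A peak was assigned to a promoter when its centre lay between 1000 bp upstream and 100 bp downstream of any annotated transcript start of the gene. A wider window of 2 kb to either side of a start was counted as well. The strength of a peak is given by its −log10 q, by its fold (the fragments at the summit over the local background of the same library, with 1 added to both) and by the number of fragments at the summit. The WDR5 lists held 35605 peaks (DMSO) and 14123 peaks (MS67), and the SS18::SSX lists 15141 and 1175. The libraries differed in depth. The WDR5 MS67 library had 0.458 times the genome-wide coverage of its DMSO counterpart, and the SS18::SSX MS67 library had 1.36 times that of its own. The lists carry no spike-in scaling, so peak numbers and −log10 q values in different lists are set side by side and are not measures of the amount of bound protein.

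Promoter sequences are shown for 5 of the genes, because their peaks carry the main patterns below. MRPL37 and MRPS24 had the strongest WDR5 promoter peaks with DMSO. MRPL24 had a strong WDR5 peak that no MS67 peak overlapped. MRPS23 had a WDR5 promoter peak in the MS67 list alone. MRPL14 had an SS18::SSX promoter peak with DMSO and no WDR5 promoter peak. The windows run from 250 bases before to 50 bases after the RefSeq start (GRCh38.p14, identical in hg38) and are written 5′ to 3′ along the gene: MRPL37 at chr1:54199917-54200216 (plus strand), MRPS24 at chr7:43869468-43869767 (minus), MRPL24 at chr1:156741039-156741338 (minus), MRPS23 at chr17:57849995-57850294 (minus) and MRPL14 at chr6:44127259-44127558 (minus). Capitals mark matches, on either strand, to the letters of 6 factor families described further below.
MRPL37: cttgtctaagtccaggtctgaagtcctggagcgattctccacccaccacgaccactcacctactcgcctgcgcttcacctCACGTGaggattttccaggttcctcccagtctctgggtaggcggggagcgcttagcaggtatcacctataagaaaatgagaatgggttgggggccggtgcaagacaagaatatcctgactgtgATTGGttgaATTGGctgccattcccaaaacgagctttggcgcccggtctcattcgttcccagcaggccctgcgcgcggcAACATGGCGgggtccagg
MRPS24: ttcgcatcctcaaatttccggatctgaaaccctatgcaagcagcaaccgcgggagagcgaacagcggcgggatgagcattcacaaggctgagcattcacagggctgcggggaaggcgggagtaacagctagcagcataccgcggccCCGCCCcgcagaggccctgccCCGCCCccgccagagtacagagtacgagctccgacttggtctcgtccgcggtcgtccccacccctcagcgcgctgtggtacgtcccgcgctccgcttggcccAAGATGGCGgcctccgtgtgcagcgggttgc
MRPL24: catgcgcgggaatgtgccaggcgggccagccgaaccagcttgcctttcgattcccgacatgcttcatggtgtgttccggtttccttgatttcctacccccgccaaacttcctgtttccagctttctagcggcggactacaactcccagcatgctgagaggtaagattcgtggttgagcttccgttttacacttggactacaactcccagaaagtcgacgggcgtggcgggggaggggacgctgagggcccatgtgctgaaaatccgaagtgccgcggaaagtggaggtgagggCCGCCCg
MRPS23: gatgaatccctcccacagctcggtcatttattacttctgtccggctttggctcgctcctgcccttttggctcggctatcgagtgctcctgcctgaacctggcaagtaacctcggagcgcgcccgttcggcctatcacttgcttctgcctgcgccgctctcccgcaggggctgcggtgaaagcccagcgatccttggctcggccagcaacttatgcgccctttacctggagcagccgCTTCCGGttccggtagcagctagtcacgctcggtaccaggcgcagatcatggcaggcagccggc
MRPL14: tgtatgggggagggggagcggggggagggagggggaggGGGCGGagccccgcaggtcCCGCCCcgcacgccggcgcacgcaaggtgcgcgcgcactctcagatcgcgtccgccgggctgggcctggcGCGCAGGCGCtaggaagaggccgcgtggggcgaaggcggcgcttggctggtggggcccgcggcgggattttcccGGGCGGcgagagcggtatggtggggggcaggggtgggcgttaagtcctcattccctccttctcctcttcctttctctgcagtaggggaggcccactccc

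In these windows the MRPL37 and MRPS24 promoters each hold a YY1 match shortly after the start (AACATGGCG and AAGATGGCG), the MRPS23 promoter holds an ETS match on the opposite strand just before it (CTTCCGG), and the MRPL14 promoter holds an NRF1 match (GCGCAGGCGC). No match overlaps another one in any of the 5 windows. The WDR5 peaks of MRPL37 and MRPS24 overlapped these windows in both the DMSO and the MS67 list. The peaks of MRPL24, MRPS23 and MRPL14 lay outside of them.

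With DMSO, WDR5 was found at most of these promoters. A WDR5 promoter peak was present at 49 of the 78 genes (62.8%, interval 51.1 to 73.5%), compared with 43% of all protein-coding genes. Within 2 kb of a start the count was 68 of 78 (87.2%, 77.7 to 93.7%), against 62.7%. SS18::SSX was found at few of them: 8 of 78 had an SS18::SSX promoter peak with DMSO (10.3%, 4.53 to 19.2%), against 13.4% of all genes, and the all-gene share lies within the interval. Within 2 kb, SS18::SSX peaks were found at 12 of 78 genes, against 21.8% of all genes.

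**Figure D1:**
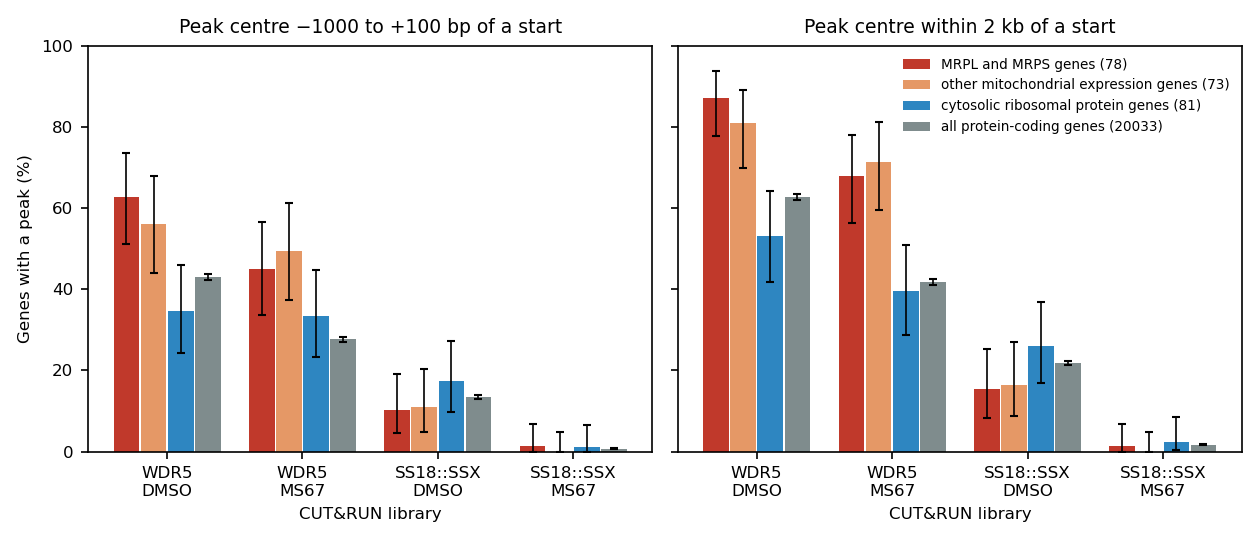
Percentage of genes with at least 1 peak in each CUT&RUN library, with the peak centre in the promoter window (left) or within 2 kb of a start (right). Bars are shares of single libraries and error bars are 95% exact binomial intervals for counting error. The red bars of the MRPL and MRPS genes stand at 62.8% and 44.9% for WDR5 with DMSO and MS67 (left), above the grey bars of all genes, and at 10.3% and 1.28% for SS18::SSX.

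The WDR5 peaks were ordinary in strength. Over the 49 genes, the strongest promoter peak of each had a −log10 q from 2.69 to 12.9 with a median of 5.38, while the median over all protein-coding genes with a peak was 5.30. The fold had a median of 5.52 against 5.09, and the summit held 7 to 22 fragments with a median of 13 against 14. These genes therefore had WDR5 peaks more often than protein-coding genes as a whole, and at a typical peak height. The comparison takes in all protein-coding genes, whether or not they were active in these cells.

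The number of annotated starts per gene, which sets how much sequence is searched, was a median of 5 both for these genes and for all genes. Among genes with 1 to 3 starts, WDR5 promoter peaks were present at 15 of 25 MRPL and MRPS genes (60%) and at 24.3% of all genes. Among genes with 4 to 6 starts, they were present at 17 of 27 (63.0%) against 44.8%. Among genes with 7 or more starts, they were present at 17 of 26 (65.4%) against 57.6%. With DMSO the share was thus almost level across the 3 classes for the mitoribosomal genes, and rose with the number of starts over all genes. With MS67 it rose for both. It was 9 of 25 (36%), 12 of 27 (44.4%) and 14 of 26 (53.8%) for the mitoribosomal genes, against 13.4%, 28.2% and 39.4%. The classes are small, and their differences were not tested.

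MRPL37, a mitochondrion-specific protein of the large subunit, had the strongest WDR5 promoter peak of the family with DMSO. The peak covered chr1:54199480-54200048, with its summit 439 bp upstream of the canonical start and within an intron of a longer transcript. It had a −log10 q of 12.9, a fold of 8.36 and 22 fragments at the summit, and it ranked 360 among all protein-coding genes. With MS67, a peak at chr1:54199550-54200024 overlapped it, with a −log10 q of 2.97, a fold of 4.91 and 7 fragments. A second MS67 peak lay at chr1:54200202-54200372, with its summit 69 bp downstream of the start.

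MRPS24 belongs to the small subunit and has a bacterial counterpart. Its strongest DMSO peak, at chr7:43869690-43869893, had a −log10 q of 10.5 and a fold of 8.07 and ranked 810 among all genes. This peak had no overlapping MS67 peak. A second and weaker DMSO peak at chr7:43869311-43869504 (−log10 q 3.29, fold 4.48) was overlapped by an MS67 peak of similar −log10 q (3.35, fold 5.2). The promoter thus held a peak in both lists. The summit of the strongest peak lay 256 bp upstream of the canonical start with DMSO and 104 bp upstream of it with MS67.

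MRPL23, whose bacterial relative sits at the exit of the peptide tunnel, came next in the family. Its peak at chr11:1948550-1949089 had a −log10 q of 10.4, a fold of 6.99 and 21 fragments. It lay 1494 bp downstream of the canonical start, in an intron, and counted as a promoter peak because of a further annotated start. No MS67 peak was found within 1 kb of it.

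Among the other genes of this group, MRPL27 had a DMSO peak 150 bp upstream of its start (−log10 q 10.0, fold 7.74). An MS67 peak overlapped it (−log10 q 3.57). MRPS27, an RNA-binding protein of the small subunit, had its strongest DMSO peak (−log10 q 9.79, fold 8.10) at chr5:72308120-72308371, at a start 11978 bp inside the gene, and a weaker one (−log10 q 3.89) 237 bp upstream of the canonical start. Both MRPS27 peaks were overlapped by MS67 peaks, of −log10 q 6.37 and 2.96. MRPS5, the relative of a bacterial protein that takes part in accurate decoding, had a DMSO peak of −log10 q 8.88 and an overlapping MS67 peak of 3.09.

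**Figure D2:**
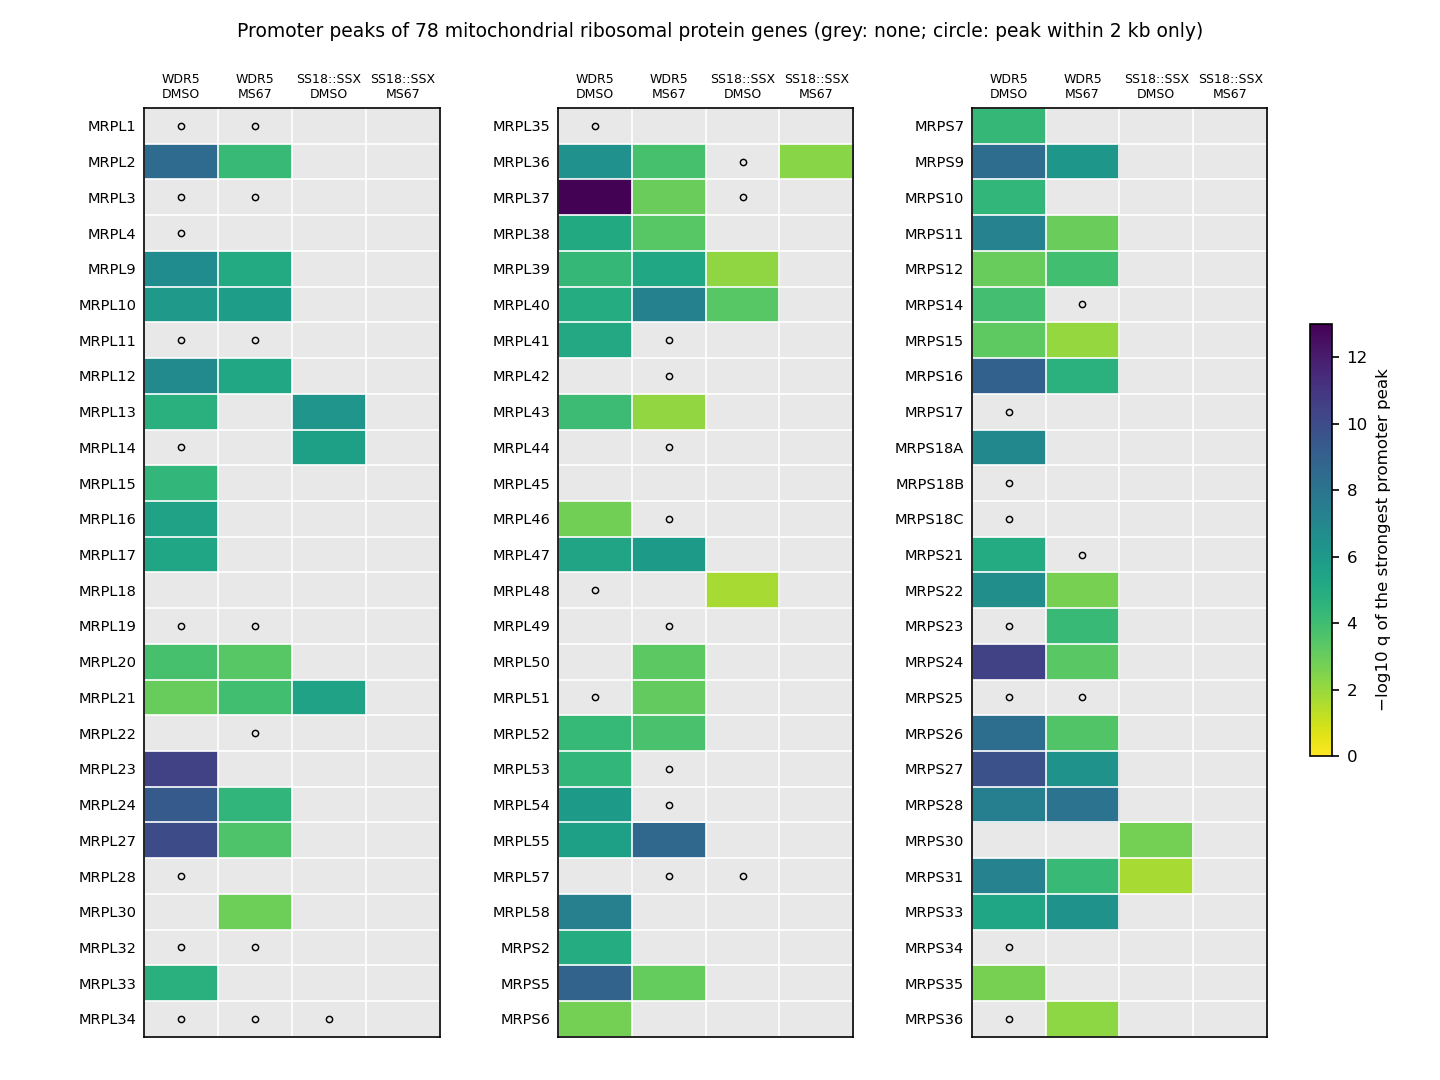
Strongest promoter peak of each of the 78 mitochondrial ribosomal protein genes in the 4 CUT&RUN libraries. Colour gives −log10 q, grey cells had no promoter peak, and a circle marks a gene with a peak within 2 kb only. In the WDR5 columns 49 (DMSO) and 35 (MS67) of the 78 cells are coloured, and in the SS18::SSX columns 8 and 1, the latter being MRPL36.

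The subunits were set side by side next. For the small subunit, 20 of 26 genes (76.9%, 56.4 to 91.0%) had a WDR5 promoter peak with DMSO, and all 26 of these had a WDR5 peak within 2 kb (100%, 86.8 to 100%). For the large subunit, 29 of 51 had a promoter peak (56.9%, 42.2 to 70.7%) and 41 of 51 had a peak within 2 kb (80.4%, 66.9 to 90.2%). MRPS18A and MRPS30 were counted with the large subunit, where their proteins reside. MRPS36, whose product belongs to the 2-oxoglutarate dehydrogenase complex and is absent from mitoribosome structures, was counted with neither. Over all protein-coding genes the DMSO shares were 43% (promoter) and 62.7% (within 2 kb). The DMSO intervals of both subunits overlap. With MS67 the promoter counts were 14 of 26 (53.8%, small) and 20 of 51 (39.2%, large). Within 2 kb they were 17 of 26 (65.4%) and 35 of 51 (68.6%), the opposite order to that with DMSO. The differences between subunits were not tested.

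Genes of proteins with a bacterial counterpart had WDR5 promoter peaks at 31 of 46 (67.4%), and genes of mitochondrion-specific proteins at 18 of 31 (58.1%). The promoter shares lie within each other's intervals (52.0 to 80.5% and 39.1 to 75.5%). Within 2 kb the counts were 43 of 46 (93.5%, 82.1 to 98.6%) and 24 of 31 (77.4%, 58.9 to 90.4%), where each share lies outside the interval of the other although the intervals overlap. With MS67 the promoter counts were 20 of 46 (43.5%) and 14 of 31 (45.2%). Within 2 kb they were 29 of 46 (63.0%) and 23 of 31 (74.2%), the opposite order to that with DMSO. These differences were not tested. The classes were assigned from general knowledge and not from a reference list. MRPL55, counted here with a bacterial counterpart, may belong to the other class, and it had a WDR5 promoter peak with both treatments.

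With MS67, fewer of the genes had a WDR5 promoter peak: 35 of 78 (44.9%, 33.6 to 56.6%), against 27.7% of all genes. Within 2 kb the count was 53 of 78 (67.9%), against 41.8%. Counted by gene, 30 had a promoter peak with both treatments, 19 with DMSO alone, 5 with MS67 alone and 24 with neither. The corresponding numbers over all protein-coding genes were 4299, 4308, 1251 and 10175. The part of the lower depth of the MS67 library in these differences was not tested.

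The same comparison was made peak by peak. Of 57 WDR5 promoter peaks of these genes in the DMSO list, 29 were overlapped by an MS67 peak (50.9%), against 36.6% of the promoter peaks of all genes. The remaining 28 were not (49.1%, 35.6 to 62.7%), against 63.4% for all genes. When an MS67 peak within 1 kb counted as well, 43 of the 57 were kept (75.4%), against 56.3%. Of the 28 peaks without an overlapping MS67 peak, 14 thus had one within 1 kb.

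Strong DMSO peaks were kept more often over all genes, where the peaks were divided by −log10 q into 4 classes of about equal number and the share rose from 22.1% in the weakest class to 56.6% in the strongest. The shares of the mitoribosomal genes were not in this order. From the weakest class to the strongest, their peaks were kept at 6 of 11 (54.5%), 3 of 12 (25%), 11 of 19 (57.9%) and 9 of 15 (60.0%). Kept peaks had a median −log10 q of 5.62 and lost ones of 4.83, with medians of 13 and 12 fragments at the summit.

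**Figure D3:**
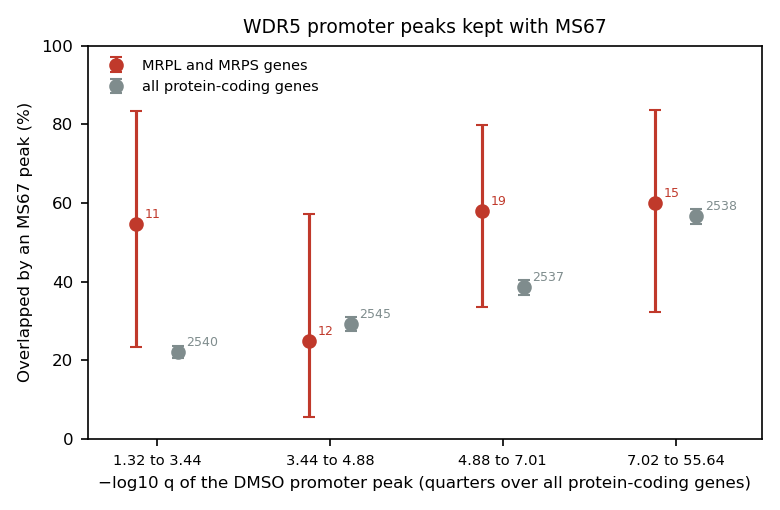
Percentage of WDR5 promoter peaks with DMSO that an MS67 peak overlapped by at least 1 bp, in 4 classes of −log10 q (x axis) that divide the promoter peaks of all protein-coding genes evenly. Points are shares of single libraries, error bars are 95% exact binomial intervals, and the number beside each point is the number of DMSO peaks. The grey points of all genes climb from 22.1% to 56.6%, while the red points of the MRPL and MRPS genes lie at 54.5%, 25%, 57.9% and 60.0% with wide intervals.

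Of the 39 WDR5 promoter peaks of these genes in the MS67 list, 11 had no overlapping DMSO peak (28.2%), against 31.8% over all genes. Of the 39, 3 had no DMSO peak within 1 kb, against 683 of 5673 over all genes. Taking the strongest MS67 promoter peak of each of the 35 genes, the summits held 5 to 14 fragments with a median of 8, and the median over all genes with a peak was 9. The median −log10 q of these strongest peaks was 3.93 against 3.77, and that of all 39 peaks was 3.79 against 3.59.

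MRPL55, a large-subunit protein, had the strongest MS67 peak of the family, at chr1:228109477-228109747, 304 bp upstream of its start, with a −log10 q of 8.61, a fold of 8.27 and 14 fragments. The DMSO peak at the same place (chr1:228109481-228109670) had a −log10 q of 5.62, a fold of 5.52 and 13 fragments. The gene ranked 161 among all genes with MS67. MRPS28 followed, with a −log10 q of 8.03 with MS67 and 7.40 with DMSO and overlapping peaks. Its rank with MS67 was 226. MRPL40, which neighbors the histone chaperone gene HIRA on chromosome 22, had a −log10 q of 7.27 with MS67 and 4.95 with DMSO, and ranked 355 with MS67. The DMSO summit lay 130 bp downstream and the MS67 summit 188 bp upstream of its start. At these 3 genes the −log10 q with MS67 exceeded that with DMSO in the shallower library, whereas at MRPL37, MRPS24 and MRPL27 it was well below. The summit of MRPS28 nevertheless held fewer fragments with MS67 (14) than with DMSO (19). The first 3 genes were picked for strong MS67 peaks and the other 3 for strong DMSO peaks. The choice itself favors these opposite directions.

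Further genes with strong MS67 peaks were MRPS27, described above, MRPS33 (−log10 q 6.32 with MS67, 5.35 with DMSO), MRPS9 (6.11 and 8.33), MRPL47 (5.91 and 5.38) and MRPL10 (5.71 and 6.02). MRPL10 is part of the stalk to which translation factors bind. The MS67 and DMSO peaks of MRPL47, MRPS9 and MRPL10 overlapped. At MRPS33 the strongest MS67 peak lay 165 bp downstream of the start and missed the DMSO peak, and a second MS67 peak (−log10 q 4.56) overlapped it.

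**Figure D4:**
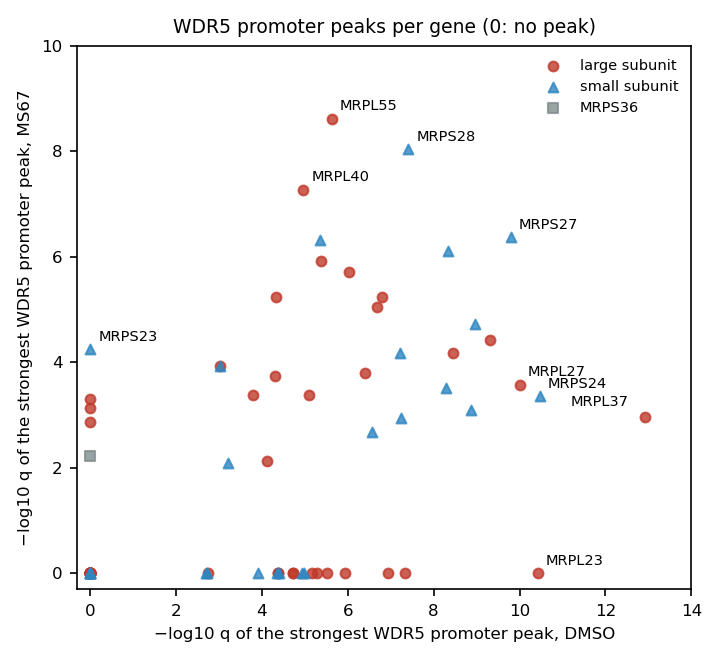
Strongest WDR5 promoter peak of each mitochondrial ribosomal protein gene with DMSO (x axis) and with MS67 (y axis), as −log10 q, with 0 for genes without a promoter peak. Circles are large-subunit genes, triangles small-subunit genes and the square is MRPS36. MRPL37 lies far right at 12.9 and 2.97, MRPL55 at the top at 5.62 and 8.61, and MRPL23 on the x axis at 10.4.

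The strongest DMSO peaks without an overlapping MS67 peak belonged to MRPS24 and MRPL23 (above), MRPL24 and MRPS16. MRPL24, also a protein near the peptide exit, lost its peak at chr1:156741412-156741593 (−log10 q 9.31), 389 bp upstream of the canonical start, whereas a weaker peak 246 bp downstream (−log10 q 5.30) was overlapped by an MS67 peak (−log10 q 4.43). MRPS16 showed the same arrangement. Its peak 847 bp upstream of the start (chr10:73253388-73253630, −log10 q 8.96) had no overlapping MS67 peak, and its peak 287 bp upstream (−log10 q 6.79) had one (−log10 q 4.72). At MRPS24, MRPL24 and MRPS16 the gene thus kept 1 of 2 DMSO promoter peaks, the weaker one in each case. These genes were picked for a strong lost peak, which favors this order. Of the other genes with 2 such peaks, MRPL55 (kept 5.62, lost 2.88) and MRPS11 (kept 7.23, lost 2.74) showed the reverse order. MRPL9, MRPS27 and MRPS28 kept both peaks, and MRPL16 kept neither.

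The 5 genes with a WDR5 promoter peak in the MS67 list alone were MRPS23, MRPL50, MRPL51, MRPL30 and MRPS36. MRPS23 had the strongest of these peaks (chr17:57850316-57850540, −log10 q 4.25, fold 5.61, 10 fragments), 331 bp upstream of the start. With DMSO the same gene had WDR5 peaks 763 bp downstream (−log10 q 3.97) and 1501 bp upstream (−log10 q 3.50), both outside the promoter window. The MS67 peaks of MRPL50, MRPL51 and MRPL30 had −log10 q values of 3.29, 3.14 and 2.86 and no DMSO peak within 1 kb. The peak of MRPS36 was the weakest, with a −log10 q of 2.22 and 5 fragments, and both lists held a further peak more than 500 bp downstream of its start.

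WDR5 promoter peaks were absent from both lists at 24 of the 78 genes, and at 10175 of the 20033 protein-coding genes. WDR5 peaks within 2 kb of a start were absent from both lists at 3 of the 78 genes, and at 6801 of all genes. Of the 24 genes, 21 thus had a WDR5 peak within 2 kb of a start in at least 1 list. They included MRPS18C, with a DMSO peak at chr4:83454678-83455031 of −log10 q 13.9 and 20 fragments, 1239 bp upstream of its start, and MRPL32, with overlapping DMSO and MS67 peaks (−log10 q 9.61 and 6.51) in an intron about 1 kb downstream. The others were MRPL1, MRPL3, MRPL4, MRPL11, MRPL14, MRPL19, MRPL22, MRPL28, MRPL34, MRPL35, MRPL42, MRPL44, MRPL48, MRPL49, MRPL57, MRPS17, MRPS18B, MRPS25 and MRPS34. MRPL18, MRPL45 and MRPS30 had no WDR5 peak within 2 kb in either list. MRPL45 is thought to tether the large subunit to the inner membrane. MRPL18 and MRPL45 had no peak of any list within 2 kb, and MRPS30 had an SS18::SSX peak. A gene without a peak is one whose signal did not pass the peak threshold at the depth of these libraries.

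SS18::SSX promoter peaks with DMSO belonged to MRPL13, MRPL14, MRPL21, MRPL40, MRPS30, MRPL39, MRPL48 and MRPS31. They had −log10 q values from 1.68 to 6.23 with a median of 3.06, against 3.4 over all genes, and 5 to 12 fragments at the summit. The 3 strongest were those of MRPL13 (6.23, fold 6.56), MRPL14 (5.61, fold 6.29) and MRPL21 (5.52, fold 6.38). The others lay between 3.4 (MRPL40) and 1.68 (MRPS31). MRPS31 is the sole small-subunit gene among them.

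With DMSO, 5 of the 78 genes had promoter peaks of both WDR5 and SS18::SSX (6.41%), against 9.34% of all protein-coding genes. A further 44 had a promoter peak of WDR5 alone, 3 of SS18::SSX alone and 26 of neither. Within 2 kb of a start the share with both was 12.8%, against 19.3%. The 5 were MRPL13, MRPL21, MRPL39, MRPL40 and MRPS31, and the 3 were MRPL14, MRPL48 and MRPS30. WDR5 promoter peaks were thus present at 62.5% of the genes with SS18::SSX, against 69.7% over all genes with an SS18::SSX promoter peak. At MRPL21 both peaks began at the same base (chr11:68903930), with summits 211 bp (WDR5) and 158 bp (SS18::SSX) upstream of the start. At MRPL13 the summits lay 405 bp upstream and 88 bp downstream. MRPL37 had an SS18::SSX peak 214 bp downstream of its start (chr1:54200210-54200474, −log10 q 5.52, fold 6.49), outside the promoter window but overlapping the end of the sequence shown above.

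With MS67, none of the 8 SS18::SSX promoter peaks was overlapped by an SS18::SSX peak or had one within 1 kb (lost: 100%, 63.1 to 100%). Over all protein-coding genes 3.8% of such peaks were overlapped, so a loss of 8 of 8 was also the common outcome elsewhere. This library was the deeper of the pair. Its list held 1 promoter peak of these genes, at MRPL36 (chr5:1800557-1800898, −log10 q 2.31, fold 3.66, 16 fragments), which is 1.28% of the genes (0.0325 to 6.94%) against 0.724% of all genes. Within 2 kb the count was 1 of 78 as well, against 1.75% of all genes. MRPL36 shares its promoter region with NDUFS6, a subunit of complex I, and had a WDR5 promoter peak in both lists. These WDR5 peaks did not overlap, with summits 624 bp (DMSO) and 1779 bp (MS67) upstream of the canonical start. The only SS18::SSX peak of MRPL36 with DMSO lay 455 bp downstream of the start, at another place.

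The position of the peaks differed somewhat from that of other genes. For genes with a WDR5 peak within 2 kb of the canonical start, the summit of the strongest such peak with DMSO lay at a median of 131 bp upstream of the start (quartiles 400 bp upstream and 547 bp downstream, 67 genes). Over all protein-coding genes it lay at a median of 126 bp downstream (11546 genes). The summit was downstream in 29 of 67 mitoribosomal genes (43.3%) and in 56.5% of all genes. With MS67 the median was 44 bp downstream for 51 of these genes and 128 bp downstream for 7626 genes in all, and the share of summits within 500 bp of the start was 70.6% against 60.3%. With DMSO that share was 52.2% against 43.2%.

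**Figure D5:**
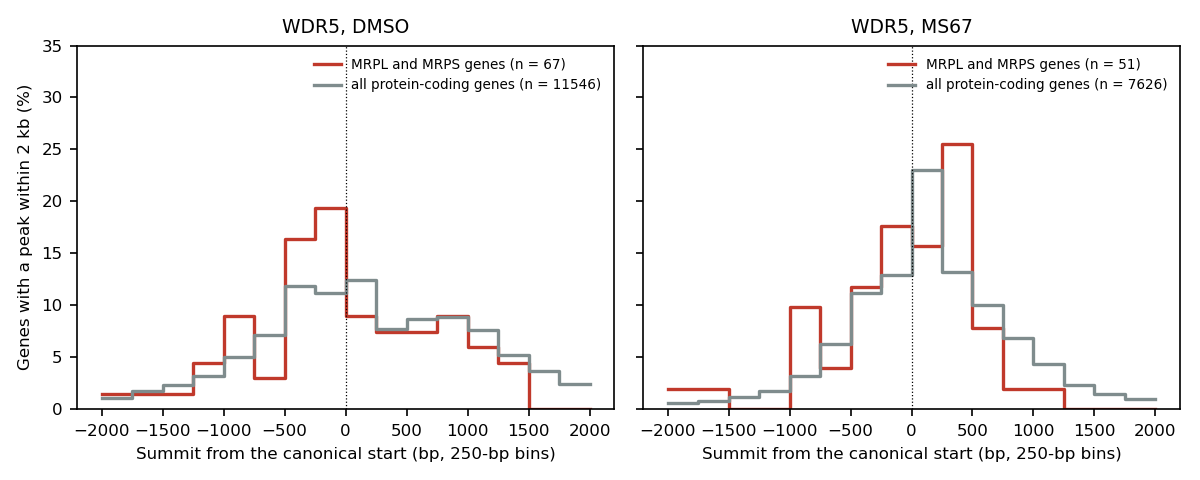
Position of the summit of the strongest WDR5 peak within 2 kb of the canonical start, in bins of 250 bp, as a percentage of the genes with such a peak, with DMSO (left) and MS67 (right). The red line shows the MRPL and MRPS genes (67 and 51 genes), the grey line all protein-coding genes, and the dotted line the start. With DMSO the red line peaks in the 2 bins just upstream of the start.

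By annotation, the WDR5 promoter peaks with DMSO had their summit upstream of the gene in 40 of 58 pairs of gene and peak, in an exon in 12 and in an intron in 6. With MS67 the numbers were 20, 14 and 5. For SS18::SSX with DMSO they were 4, 3 and 1. The promoter window reaches 1000 bp upstream but only 100 bp downstream of a start, so it favors summits upstream. No such counts were made over all genes, so these numbers do not set the group apart.

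Head-to-head promoters were frequent. The start of another protein-coding gene on the opposite strand lay within 1000 bp upstream at 31 of the 78 genes (39.7%), against 16.2% of all protein-coding genes. Several of the neighbors are mitochondrial as well: MRPL46 and MRPS11 face each other 63 bp apart, MRPL36 faces NDUFS6 and MRPL47 faces NDUFB5 (both complex I subunits), MRPS12 faces SARS2 (the mitochondrial seryl-tRNA synthetase), MRPL43 faces TWNK (the mitochondrial DNA helicase) and MRPS27 faces PTCD2. MRPL49 faces FAU, which encodes a cytosolic ribosomal protein. A peak in such a region cannot be assigned to 1 of the 2 genes.

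WDR5 promoter peaks with DMSO were found at 19 of the 31 genes with such a neighbor (61.3%, 42.2 to 78.2%). The share over all genes of this kind was 54.1%, which lies within the interval. They were found at 30 of the 47 genes without one (63.8%, 48.5 to 77.3%), against 40.8%. At genes without such a neighbor the all-gene share lies below the interval. The part of head-to-head neighbors in these shares was not tested. With MS67 the shares were 17 of 31 (54.8%, 36.0 to 72.7%), against 45.9%, and 18 of 47 (38.3%, 24.5 to 53.6%), against 24.2%. The all-gene share again lies within the interval at genes with such a neighbor. The MRPL46 and MRPS11 pair shared a DMSO peak at chr15:88467875-88468033 (−log10 q 2.74). A stronger peak at chr15:88467160-88467406 (−log10 q 7.23) was 91 bp downstream of the start of MRPL46 and in the promoter window of MRPS11 alone, and an MS67 peak (−log10 q 2.95) overlapped it.

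The promoter windows described above were available for 69 of the 78 genes and for 15843 protein-coding genes in all. They were searched on both strands for the letters CCGGAAG (ETS), AANATGGCG (YY1), GGGCGG (SP/KLF), CCAAT (NFY) and CACGTG (E-box), and for an NRF1 motif. The ETS letters were present in 29 of 69 windows (42.0%, 30.2 to 54.5%), against 14.2% over all genes. The YY1 letters were present in 18 (26.1%, 16.3 to 38.1%), against 4.81%. In the 65 windows of cytosolic ribosomal protein genes, the ETS letters were present in 21 (32.3%, 21.2 to 45.1%). The YY1 letters were present in 8 of these 65 (12.3%, 5.47 to 22.8%). Both shares were also above those of all genes, and their intervals overlap those of the MRPL and MRPS genes. ETS factors of the GABP type and NRF1 are known regulators of nuclear genes for mitochondrial proteins, and the YY1 letters can overlap a start codon. The other 4 were present at shares close to those of all genes or with intervals that include them: SP/KLF in 42 (60.9% against 58.5%), NFY in 20 (29.0% against 36.4%), NRF1 in 8 (11.6% against 8.58%) and E-box in 6 (8.70% against 8.88%). A match is a description of the sequence and not a bound site.

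The 42 windows of genes with a WDR5 promoter peak with DMSO held the ETS letters in 21 (50%, 34.2 to 65.8%), and the 27 windows of genes without one in 8 (29.6%, 13.8 to 50.2%). Over all genes the shares were 17.5% and 11.9%. The YY1 letters were present in 11 of 42 (26.2%, 13.9 to 42.0%) and 7 of 27 (25.9%, 11.1 to 46.3%), against 5.79% and 4.21% over all genes. Neither difference was tested. The median GC content of the windows was 60.3%, against 62.7% over all genes. It was 61.7% for the genes with a WDR5 promoter peak and 58.3% for those without, and over all genes 66.7% and 59.3%.

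Related gene groups were counted in the same way. The 73 other nuclear genes for mitochondrial gene expression had WDR5 promoter peaks at 41 (56.2%, 44.1 to 67.8%) with DMSO and at 36 (49.3%) with MS67, which is near the shares of the MRPL and MRPS genes. Among them were 18 of 27 mitoribosome assembly and rRNA factors, 11 of 20 mitochondrial aminoacyl-tRNA synthetases, 6 of 14 translation factors, 5 of 7 genes for mitochondrial transcription and 1 of 5 further mitoribosomal proteins with other symbols. SS18::SSX promoter peaks with DMSO were present at 8 of the 73 (11.0%), and with MS67 at 0 of 73, which allows a share of up to 4.93%.

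The profile of the 81 cytosolic ribosomal protein genes differed in part. With DMSO, 28 of them had a WDR5 promoter peak (34.6%, 24.3 to 46.0%), against 43% of all genes. This interval does not overlap that of the mitoribosomal genes (51.1 to 73.5%). Within 2 kb the count with DMSO was 43 of 81 (53.1%, 41.7 to 64.3%), against 62.7% of all genes. With MS67 it was 32 of 81 (39.5%), against 41.8%. The paper, with another profiling method, reports ribosomal protein genes among the top categories of peaks shared by WDR5 and H3K4 methylation. The present counts of peaks do not measure that enrichment. In the promoter window the count with MS67 was 27 (33.3%, 23.2 to 44.7%), against 27.7% of all genes. This interval overlaps that of the mitoribosomal genes (33.6 to 56.6%). Of their 30 DMSO promoter peaks, 8 were overlapped by an MS67 peak (26.7%), against 29 of 57 at the mitoribosomal genes. The intervals of the shares lost overlap (54.1 to 87.7% and 35.6 to 62.7%). Their strongest DMSO summits lay at a median of 445 bp upstream of the canonical start, with 21.6% downstream of it, against 131 bp upstream and 43.3%. SS18::SSX promoter peaks with DMSO were present at 14 of 81 (17.3%), against 13.4% of all genes. The difference between both groups of ribosomal protein genes has no test, since each share comes from 1 library.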

How the data were processed

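The 4 CUT&RUN libraries were aligned by the authors to hg38 and, for the spike-in, to mm10 with Bowtie2. Nonprimary alignments and PCR duplicates were removed, and peaks were called with MACS2 in each library on its own. For each peak the authors deposited a position, a fold enrichment (the ratio of summit to local background), −log10 p and −log10 q values from MACS2, and an integer score, which was not used here. The MACS2 command line and any control library are not given in the sources used here. The study's supplement names a stricter standard of −log10 q and fold for its overlap of peak sets between assays, and the deposited lists also hold peaks below it. All deposited peaks were used here, and that standard was an alternative.

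Fragments at each summit were recovered from the fold and the −log10 p, and 100% of the peaks gave whole numbers (tolerance 0.001 in −log10 p). The lowest background was taken as the coverage (in fragments per bp, 0.368 and 0.168 for WDR5 with DMSO and MS67, and 0.541 and 0.737 for SS18::SSX). Median WDR5 summits held 13 (DMSO) and 8 (MS67) fragments, and SS18::SSX summits 16 and 30. The scripts were tested on simulated data. Shares of such low counts have wide intervals.

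Peaks were assigned to GENCODE 44 starts by their centre, and 2 peaks overlapped when they shared 1 bp or more. Genes named in the text were those with an SS18::SSX promoter peak, the 8 with the strongest WDR5 peak with each treatment, the 4 strongest lost and 5 gained ones, and those without a WDR5 promoter peak. Genes in pairs, or with bearing on a described pattern, were named in addition. The members and lists were chosen with earlier results of these data known. Alternatives were other promoter windows, stricter or merged peaks and other overlaps. Tables were handled in Python 3.11.15 (pandas 2.3.3, numpy 2.4.6), intervals came from scipy 1.17.1, and plots from matplotlib 3.10.9.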

Additional observations from a re-analysis of the deposited data

How the results depend on the processing

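Of 37 comparisons with another setting, 25 stayed within the limit (1.5 times for a count, the counting interval for a share, the quartiles over genes for a median) and 12 did not. With DMSO, the genes with a WDR5 promoter peak numbered 29 with −log10 q above 5 (37.2%, against 23.6% of all protein-coding genes), 19 with −log10 q above 3 and fold above 6 (24.4% against 11.7%), and 30 among the 47 without a head-to-head neighbor (63.8% against 40.8%), a smaller set. With MS67 they numbered 53 within 2 kb (67.9% against 41.8%), 11 with −log10 q above 5 (14.1% against 6.74%), 11 with −log10 q above 3 and fold above 6 (14.1% against 7.39%), and 18 without a head-to-head neighbor (38.3% against 24.2%). In each of these settings the WDR5 share was above that of all genes, as in the report. With DMSO, an SS18::SSX promoter peak was present at 3 genes with −log10 q above 5 (3.85% against 3.02%), where the order relative to all genes was the opposite of that in the report, and at 4 with −log10 q above 3 and fold above 3 (5.13% against 7.76%). With MS67 these counts were 0 and 0, against 0.115% and 0.349% of all genes. The share of WDR5 promoter peaks lost with MS67 was 24.6% when a peak within 1 kb counted as kept, against 43.7% over all genes. With the DMSO list cut to its strongest peaks, as many as the MS67 list holds, it was 38.7% of 31 peaks, against 51.8%. The same cut of the SS18::SSX DMSO list left 0 of the 8 promoter peaks of these genes, so it gave no share. No paired analysis was possible because each condition had 1 library and the labels give no replicate numbers. With 8 to 13 fragments at a median WDR5 summit, a missing peak is not evidence of missing protein, and the effect of the unequal depths was not tested.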
